A study of Mus musculus with 6 samples.

Results

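The Arraystar mouse lncRNA array carries a run of 4127 probes, numbered from ASMM9PARTA001808 to ASMM9PARTA005937, that was inferred to target AK-accession cDNAs. The run was bounded by probe number, between 001807 and 005938. Those probes were located by their signals, from transcripts that the study lists as most changed. Left out of the run were 002047, 002499 and 004203, which were located in the same way. The run makes up 4127 of the 59709 probes that are no controls. The scanner output gives these members no transcript name, so each is called by its design number, the last 6 digits of the probe name. AK accessions are those of the full-length mouse cDNAs that RIKEN cloned and that the FANTOM consortium annotated. That collection holds many transcripts with little coding potential, which made it an early source of mouse lncRNAs. A cDNA clone could come from any of many tissues and stages, so a heart biopsy need not express it.

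The inference of the identity rests on transcripts that the study names and that were located on the array by their group means. Of these, 5 carry AK accessions, and they fell at design numbers 001807, 002047, 002499, 004203 and 005938. All 10 pairs of them stood in the order of their accessions, from AK021184 just before the block to AK087032 just after it. Each of the 5 probes was within 0.12% of the means that located it, whereas the next nearest probe was at least 5.84% away. Among the 11 Ensembl transcripts located the same way, between 012617 and 018557, 53 of 55 pairs followed accession order. No member itself was named by this route, and sequences, coordinates and gene annotations of the members were not analysed here. A further 93 probes that the files name by an AK accession lie outside the block and serve as a comparison.

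Ischemic preconditioning (IPC) is the treatment of the heart with brief occlusions of a coronary artery, each followed by reperfusion, which makes the muscle more tolerant of a later, longer occlusion. Biopsies of the area at risk (AAR), the muscle fed by the occluded left coronary artery, and of remote myocardium (RM), taken from the right ventricle by the methods, came from 2 IPC mice, 004 and 008. AAR biopsies also came from 2 sham-operated mice, 012 and 013, so that each of the 3 groups has 2 arrays. All animals are recorded as female, 12 months of age and of strain C56BL7, as the records spell it, and IPC as 4 cycles of 4 min of ischemia and 4 min of reperfusion before a final reperfusion of 30 min. The methods describe longer cycles and mice of either sex. By their labels, the IPC groups share animals. AAR and RM also differ in the chamber sampled, so the response to IPC and the difference between ventricles cannot be told apart.

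The arrays did not measure the tissue equally well, which touches each result below. On each array, 62513 spots were read, and of the 4127 members the median processed signal was 27.5 to 29.0 in the IPC AAR, 42.4 to 46.3 in the IPC RM and 25.2 to 29.7 for sham. The 4 IPC arrays were on slide 1 and both sham arrays on slide 2, so slide and sham operation cannot be told apart. A probe located as Xist, the RNA that coats the inactive X chromosome of female cells, read 13.31 and 13.28 on the log2 scale in the IPC AAR of mice 004 and 008, 7.40 and 7.71 in their RM, and 12.95 and 12.80 for the sham mice. The low RM values go against the record that AAR and RM of a number come from the same female mouse, so the samples are called here by their labels, and the part of this in the differences between AAR and RM was not tested. Of 10 marker genes of heart muscle, atrium, blood, endothelium and fibroblasts, 0 could be tied to a probe by name in the files, so the labelled tissue was not checked. In these bulk samples, fewer cells of a type and less RNA per cell cannot be told apart.

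The members were detected less often than other probes. Detection was taken from the scanner software's flag for spots well above background. In the IPC AAR, 2558 members (62.0%) were well above background in mouse 004 and 2675 (64.8%) in mouse 008. In the IPC RM, 3047 (73.8%) and 3128 (75.8%) were, and in the sham AAR 2227 (54.0%) in mouse 012 and 2718 (65.9%) in mouse 013. The RM arrays thus detected the most members, and the sham arrays spanned the widest range, from below both IPC AAR arrays to above both. The probes with a design number outside the block were detected more often on 6 of 6 arrays, at 64.1% to 82.9%. The 93 AK-named probes, at 62.4% to 81.7%, also lay above the block on each array. These shares were not tested against each other, since probes of an array share its hybridization.

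**Figure D1:**
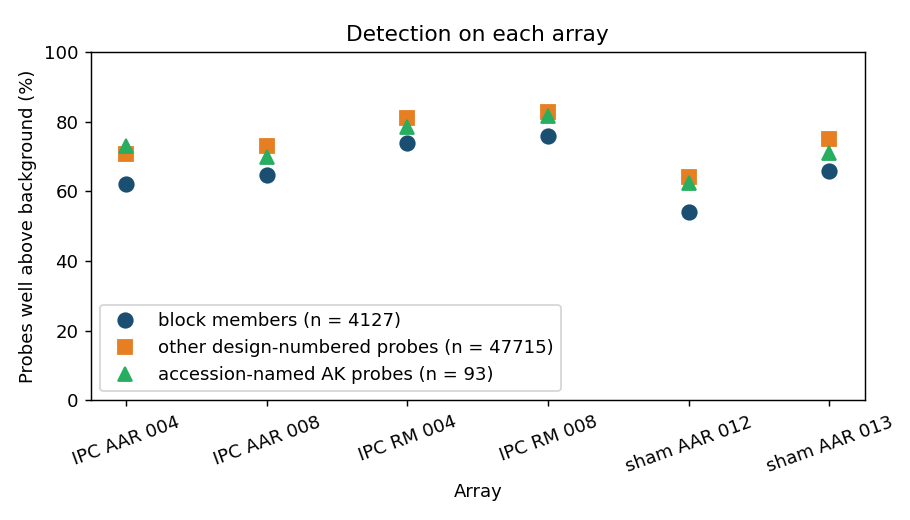
Share of probes well above background (%) on each of the 6 arrays, for the block members, the other probes with a design number and the AK-named probes. The members form the lowest point on each array, from 54.0% on sham AAR 012 to 75.8% on IPC RM 008.

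Detection on some arrays but not others was common. On all 6 arrays 2080 members (50.4%) were well above background and on none 771 (18.7%), which left 1276 (30.9%) seen on 1 to 5 arrays. Over all probes, 57.9% were seen on all arrays and 15.2% on none. Both ends of the block are dim: member 001808, the first, was well above background on the RM arrays only, at 3.61 and 3.84 on the normalized log2 scale, and member 005937, the last, on no array. For 001808 the AAR values of 3.05 and 3.87 overlapped those of the RM, and limma's log2 difference of -0.27 (SE 0.33, adjusted p = 0.537) did not pass the test. Without the AAR array of mouse 004 it turned to 0.14.

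Replicates agreed to different degrees. Over the 2080 members detected on all arrays, the median absolute log2 difference between the 2 arrays of a group was 0.14 in the IPC AAR, 0.13 in the IPC RM and 0.38 in the sham AAR. More than 2-fold apart were 56 members (2.69%) in the IPC AAR, 17 (0.817%) in the IPC RM and 162 (7.79%) in the sham AAR. The sham mice therefore differed most, and neither was the lower throughout, since 95 of the 162 were lower in mouse 012 and 67 in mouse 013. Over all probes detected on all arrays the sham median was 0.31, so the wide spread in sham was not limited to the members.

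The first comparison asks which members differ between the AAR and the RM after IPC. A member entered the test if either group had it detected on both of its arrays, and was called at a limma adjusted p below 0.05, taken over all probes tested, with a fold above 2. Of 2982 members tested, 529 (17.7%) were called, against 20.6% of all 46232 probes tested. The calls were split almost evenly, with 287 members higher in the AAR (9.62%, against 7.29% of all probes) and 242 lower (8.12%, against 13.3%). Higher calls made up 54.3% of the members' calls, 33.2% of those of the other design-numbered probes and 35.5% of all calls. These sets were not matched for intensity. The members' normalized log2 median ran from 4.945 on IPC RM 008 to 5.091 on IPC AAR 008, against 5.717 over all probes. The median log2 difference was 0.30 over the members tested and 0.20 over all probes tested. Of the AK-named probes, 72 were tested, and 7 were called higher and 9 lower.

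The split of the calls moved with the filter on dim members. Of the 242 lower calls, 138 (57.0%) missed the detection flag on 1 or both AAR arrays, while of the 287 higher calls 16 (5.57%) missed it on 1 or both RM arrays. With tests limited to members detected on all 4 arrays, 379 were called, 275 higher and 104 lower, so that 72.6% were higher. Over all probes, this filter gave 7234 calls, whose directions were not counted. The 72.6% therefore cannot be set against the 35.5% of all calls under the wider filter. That filter removes a member whose AAR level lies below the AAR detection limit. The split therefore does not show that fewer members were lower in the AAR than higher. Among the members called at first and detected on all 4 arrays, the median log2 difference was 1.27 for those higher and -1.58 for those lower. More than 8-fold apart were 2 of these higher members and 13 of the lower ones. The count also moved when 1 array was left out, falling without either RM array and rising without either AAR array. The array left alone in its group was then assumed to vary like the other group. Without the RM array of mouse 004, lower calls outnumbered higher ones. The members' median log2 difference ran from 0.24 without that array to 0.32 without the AAR array of mouse 004, against 0.30 as reported. Background correction by normexp gave 180 calls among the members and 5029 over all probes, against 529 and 9505 as reported.

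Each mouse number can also be read alone, since an AAR and an RM biopsy bear it. Given the Xist values above, it is not certain that such a pair comes from the same animal. The differences below are therefore those of labelled pairs. The median difference over the tested members was 0.31 in mouse 004 and 0.27 in mouse 008. More than 2-fold higher in the AAR in both mice were 202 members (6.77%, against 5.65% of all probes), and more than 2-fold lower in both 210 (7.04%, against 12.5%). Members more than 2-fold apart in opposite directions numbered 20 (0.671%, against 0.407% of all probes). In one of these, ASMM9PARTA003153, the AAR read 1.41 in mouse 004 and 9.63 in mouse 008, against 3.72 and 2.97 in the RM. It was picked after its values were seen.

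**Figure D2:**
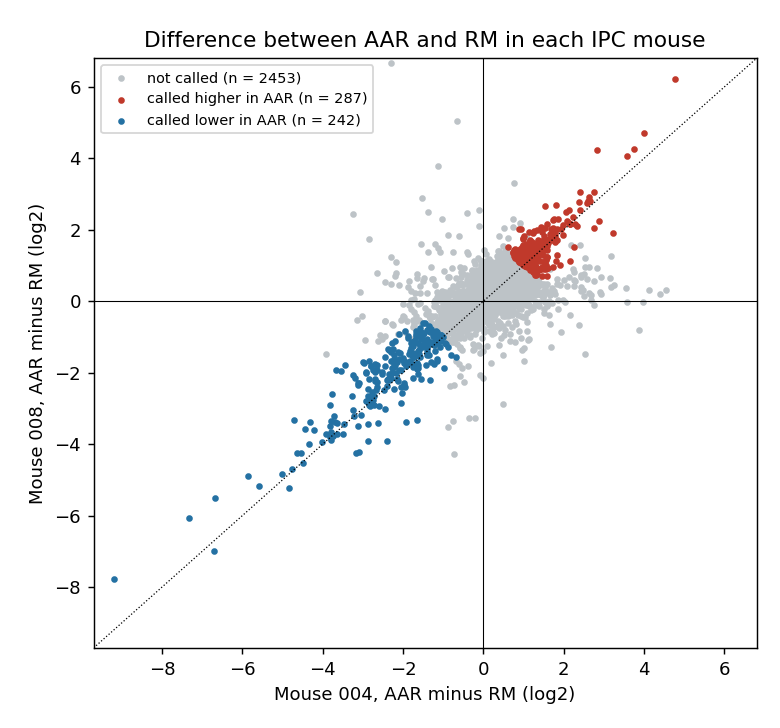
AAR minus RM (log2) of the samples labelled mouse 004 (horizontal) and mouse 008 (vertical) for the 2982 tested members, with the dotted line marking equal values. The 287 members called higher and the 242 called lower lie to the upper right and lower left of the origin.

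Not ranked here are the left-out probes 002047 and 002499. Probe 002047 read 9.98 and 9.96 in the AAR and 5.98 and 6.01 in the RM. Probe 002499 read 8.20 and 8.43 in the AAR and 4.49 and 4.29 in the RM. Among the members detected on all 4 arrays, 002940 rose most in the AAR. Its normalized log2 values were 7.67 and 8.25 in the AAR of mice 004 and 008, 3.67 and 3.55 in the RM, and 4.36 and 8.08 in the sham AAR. AAR and RM lay 4.35 apart (SE 0.24, limma adjusted p = 0.00225), a 20.4-fold difference, whereas the sham mice fell on either side: 013 read like the IPC AAR and 012 was not well above background. Member 004631 read 7.56 and 7.84 in the AAR, 3.99 and 3.79 in the RM and 3.85 and 4.30 in the sham AAR. Its AAR exceeded the RM by 3.81 (SE 0.15, limma adjusted p = 0.00135), and here both sham arrays lay near the RM.

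The other 4 of the 6 largest rises were brighter in the RM too. Member 002865 read 11.76 and 12.02 in the AAR, 9.01 and 8.95 in the RM and 10.37 and 8.72 in the sham AAR, a rise of 2.91 over the RM (SE 0.12, limma adjusted p = 0.00148). Member 004328 read 8.53 and 8.63, 5.91 and 5.73, and 8.28 and 7.79 in the same order, a rise of 2.76 (SE 0.11, limma adjusted p = 0.00131). In 004328 sham and IPC AAR lay close together, and the difference of 0.55 between them was not called. Member 001882 read 11.49 and 11.54 in the AAR, 8.84 and 8.75 in the RM and 9.58 and 9.14 in the sham AAR, a rise of 2.72 over the RM (SE 0.08, limma adjusted p = 0.000986). Member 003233 read 8.93 and 8.92, 6.34 and 6.12, and 8.01 and 7.25, a rise of 2.70 (SE 0.11, limma adjusted p = 0.00138). In 003233 both sham arrays lay between the IPC groups, and in 001882 they lay nearer the RM.

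The 6 largest falls were taken among members detected on all 4 arrays in the same way. The left-out probe 004203, at 5.84 and 6.13 in the AAR and 12.45 and 12.38 in the RM, is not among them. Member 004361 read 4.54 and 4.04 in the AAR, 9.39 and 9.27 in the RM and 7.87 and 9.13 in the sham AAR, a fall of 32.9-fold (log2 difference -5.04, SE 0.21, limma adjusted p = 0.0014). Member 005352 read 6.0 and 6.19, 11.01 and 11.01, and 9.65 and 11.94, with a log2 difference between AAR and RM of -4.92 (SE 0.10, limma adjusted p = 0.000723). Member 004838 read 4.17 and 4.15, 8.93 and 8.86, and 7.30 and 8.63, with a difference of -4.74 (SE 0.08, limma adjusted p = 0.000723). In each of these, the sham AAR was above the IPC AAR on both arrays, and mouse 012 was the lower of the sham mice.

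The next 3 showed the same arrangement. Member 004867 read 6.0 and 6.32 in the AAR, 10.55 and 10.58 in the RM and 9.10 and 10.44 in the sham AAR, and its AAR differed from the RM by -4.40 (SE 0.14, limma adjusted p = 0.00105). Member 005245 read 4.20 and 4.43, 8.54 and 8.43, and 7.76 and 8.52, a difference of -4.18 (SE 0.12, limma adjusted p = 0.000951). Member 004497 read 4.62 and 4.55, 8.62 and 8.48, and 7.87 and 9.68, a difference of -3.97 (SE 0.09, limma adjusted p = 0.000761). For all 6 of the named falls, no AAR value reached the lowest RM or sham value. They kept their call in the 13 alternatives tried for this comparison, as did the 6 named rises except 002940, which lost it in 2.

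**Figure D3:**
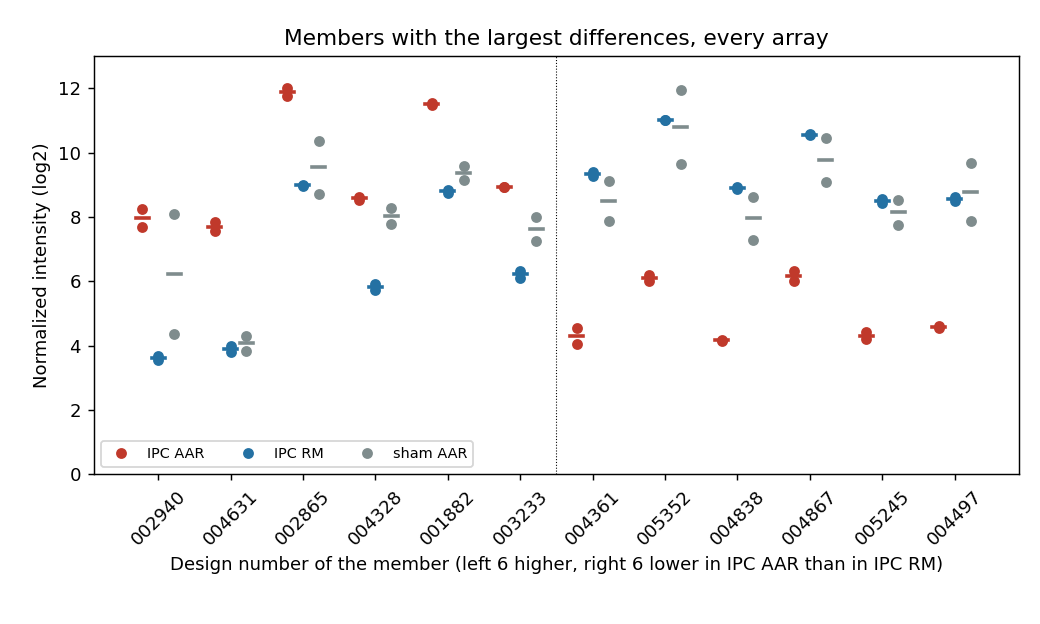
Normalized log2 intensity of the 12 members named for the largest differences between IPC AAR and IPC RM, with points for the 2 arrays of each group and bars for their mean. Members higher in the AAR are left of the dotted line and those lower are right of it. In the lower members the sham AAR points lie above the IPC AAR points. In the higher members they range from the RM level (004631) to the AAR level (004328).

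Some members were well above background in only one of the biopsies. Both RM arrays and neither AAR array detected 297 members (7.2%, against 6.77% of all probes), while both AAR arrays and neither RM array detected 7 (0.17%, against 0.162%). Of the 297, 112 were called. For such members the dim side gives only a bound, so the fold was taken against the lowest signal that counted as well above background on each dim array, or the member's own value where that was higher. By this measure 41 of the 297 were at least 2-fold higher in the RM, and 40 of these were called. The remaining called members are not shown to pass the 2-fold threshold, since their AAR level is known only as a bound. For 175 of the 297, 30 of the called ones included, the RM level itself lay under the AAR bound, so no fold can be given. The RM arrays had the lower detection limit, at 2.98 and 2.73 against 4.13 and 3.88 in the AAR on the normalized log2 scale.

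The member with the highest bound was 004256, which read 10.61 and 10.42 in the RM, 9.66 and 10.67 in the sham AAR, and 1.41 and 2.65 in the IPC AAR, where it was not well above background. It was at least 91.2-fold higher in the RM (limma adjusted p = 0.00244) and thus bright in all 4 arrays outside the IPC AAR. Member 004948 read 8.11 and 8.40 in the RM and 1.41 and 1.40 in the AAR, at least 19.0-fold apart (limma adjusted p = 0.000723). Unlike 004256, it was detected in only 1 of the sham mice, 013, at 3.78, against 1.36 in 012. Member 004380 read 8.10 and 7.93 in the RM, 8.44 and 9.03 in the sham AAR and 1.41 and 2.44 in the IPC AAR, and was at least 16.1-fold higher in the RM (limma adjusted p = 0.00315). The AAR values of 1.41 and 1.40 are the lowest on their arrays and shared by many members, so they have no order.

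In the other direction, 6 of the 7 members had a value on every array, and all 6 were called. Member 003346 read 5.96 and 6.03 in the AAR and 2.20 and 1.76 in the RM, at least 8.8-fold apart (limma adjusted p = 0.00169). Member 002694 read 5.16 and 5.07 in the AAR, at least 4.79-fold above an RM of 2.75 and 2.01 (limma adjusted p = 0.00754), and member 004676 read 4.66 and 5.38, at least 4.48-fold above 2.85 and 2.70 (limma adjusted p = 0.0108). None of the 3 was well above background in either sham mouse. In mice 012 and 013 they read 4.14 and 1.63, 3.08 and 1.34, and 2.23 and 2.73 in the same order. Against sham, 003346 and 002694 were not called (limma adjusted p = 0.104 and 0.0694). Member 004676 was called, at least 1.96-fold higher (limma adjusted p = 0.0343). Of the whole block, 6 members (0.145%, against 0.0938% of all probes) were detected on both IPC AAR arrays and on neither array of the other groups.

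Calls were spread along the whole block. Cut into 8 consecutive runs of 515 or 516 members, the block had between 14.7% and 22.5% of tested members called in each run, and 45.3% to 54.2% of members detected on all 6 arrays. The run from 003873 to 004389 had the most calls, with 48 higher and 38 lower. Higher calls ranged from 5.88% in the last run to 12.6% in that run, and lower calls from 5.03% in the run from 003357 to 003872 to 10.7% in that from 002324 to 002840. Higher calls outnumbered lower ones in 6 of the 8 runs, the exceptions being the runs from 002324 and from 005422. Among 2178 pairs of neighboring design numbers that were both tested, the log2 differences of neighbors had a correlation of 0.005. Of the 72 pairs with both members called, 40 differed in the same direction. The calls and differences all come from the same 4 arrays, and runs were not tested against each other.

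**Figure D4:**
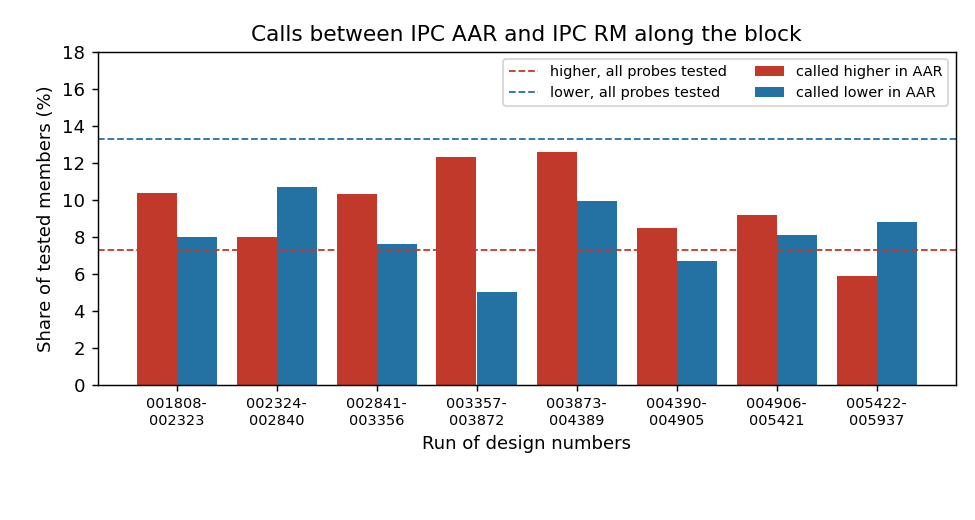
Share of tested members (%) called higher (red) or lower (blue) in IPC AAR than in IPC RM in 8 consecutive runs of design numbers, with dashed lines for all probes tested (7.29% higher and 13.3% lower). Lower calls stay under their dashed line in each run, and higher calls lie above theirs in all but the last, which is at 5.88%.

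The second comparison asks how the AAR of IPC mice differs from that of sham-operated mice. It has the same IPC AAR arrays as the first, so the results are not independent of it. Of 2509 members tested, 146 (5.82%) were called, against 8.56% of all 40161 probes. Higher in the IPC AAR were 78 members (3.11%, against 2.78%) and lower 68 (2.71%, against 5.78%). The median log2 difference was 0.34 over the members and 0.23 over all probes tested. This count is not stable: without either IPC AAR array it was 0 (341 members at an unadjusted p below 0.05 without mouse 004 and 389 without mouse 008), without sham mouse 012 it was 507 (279 higher and 228 lower, with 8796 calls over all probes), and without sham mouse 013 it was 87 (27 higher and 60 lower, with 2114). Higher calls thus made up 55.0% and 31.0%, in place of 53.4%. It was also 0 in the methods' t-test after adjustment, with 511 members at an unadjusted p below 0.05, and 0 with dim probes kept, with 1023.

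The largest rise over sham among members detected on all 4 arrays was that of 004292, which read 8.30 and 8.47 in the IPC AAR, 5.76 and 5.54 in the sham AAR and 5.90 and 5.92 in the RM. The difference from sham was 2.73 (SE 0.17, limma adjusted p = 0.0164) and that from the RM 2.47 (SE 0.10, limma adjusted p = 0.00134). Member 003987 read 8.52 and 8.57 in the IPC AAR, 5.91 and 6.13 in the sham AAR and 6.57 and 6.55 in the RM, with a difference from sham of 2.52 (SE 0.16, limma adjusted p = 0.0164). Members 001934, 005521, 001882 and 004947 followed, with differences from sham of 2.51, 2.23, 2.16 and 2.15 and limma adjusted p of 0.0439, 0.0402, 0.0234 and 0.0178. In each of these 6, the sham arrays lay below the IPC AAR, and 001934 had the widest gap between the sham mice, at 5.70 and 4.65.

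The falls against sham were led by 004361, 004497, 005245, 004838, 003076 and 004867, at -4.21, -4.19, -3.83, -3.81, -3.74 and -3.61 (limma adjusted p from 0.0195 for 003076 to 0.0431 for 004497). Of these, only 003076 is not among the 6 largest falls against the RM: it read 5.14 and 5.63 in the IPC AAR, 8.83 and 9.42 in the sham AAR and 9.35 and 9.24 in the RM. Member 005352 differed from sham by -4.71 (SE 0.83), but the sham mice, at 9.65 and 11.94, lay far apart and it missed the threshold at a limma adjusted p of 0.0513. Each member named here or below as called against sham lost that call in 4 to 7 of the 11 or 12 alternatives tried for it.

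Detection separated the AAR of IPC and sham mice in few members. Both IPC arrays and neither sham array detected 91 (2.2%, against 1.78% of all probes), and both sham arrays and neither IPC array 18 (0.436%, against 0.921%). The detection limit of sham mouse 012 lay above those of both IPC AAR arrays, and that of mouse 013 below both. Of the 91, 90 had a value on every array compared. Of these, 9 were called and 19 had a bound above 2-fold, with only 3 members in both sets. Of the 18, 10 were called and 16 had such a bound, the 10 called ones included. The counts of 91 and 18 therefore do not show that more members were higher than lower in the IPC AAR. Of the 18, 17 (94.4%) were also detected on both RM arrays, against 93.1% of the 550 such probes over the whole array. The highest bound belonged again to 004256, where sham exceeded IPC at least 71.4-fold (limma adjusted p = 0.0178), followed by 004380 at 26.5-fold and 004240 at 13.1-fold. Member 004240 read 3.10 and 3.34 in the IPC AAR, 7.43 and 8.00 in the sham AAR and 7.74 and 7.58 in the RM. Among members detected only in the IPC AAR of the pair, 002650 had the highest bound, at least 17.2-fold (limma adjusted p = 0.0306), with 7.79 and 8.54 in the IPC AAR and 3.98 and 2.49 in the sham AAR. It was well above background on 1 of the RM arrays, at 3.03, and read 2.32 on the other. Members 003997 and 004684 were each at least 2.17-fold higher than sham.

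Members called in the same direction in both comparisons are those where the IPC AAR stood apart from both other groups. Taken by the smaller of the fitted differences, 4 higher ones are 002650, 004631, 004292 and 004676 and 4 lower ones 004256, 004380, 002414 and 005070. No order among them is given, since all but 004292 were not well above background on 1 or more arrays of a dimmer group. Member 002414 read 2.99 and 4.00 in the IPC AAR, 10.30 and 10.06 in the RM and 9.03 and 9.84 in the sham AAR. Member 005070 read 3.67 and 4.05, 9.24 and 9.21, and 8.74 and 8.66 in the same order. Each was well above background in the IPC AAR of mouse 008 only. With the dim array at its bound, 002414 was at least 69.5-fold lower than in the RM (limma adjusted p = 0.00266) and at least 41.3-fold lower than in sham (limma adjusted p = 0.0194). For 005070 the bounds were 35.1-fold (limma adjusted p = 0.000994) and 24.4-fold (limma adjusted p = 0.014).

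The third comparison sets the RM of IPC mice against the sham AAR, which differ in chamber, treatment and slide. Of 2967 members tested, 0 were called by limma, against 0% of all 46061 probes, with 524 members at an unadjusted p below 0.05, and the methods' t-test called 0 with 369. With 1 sham array left out, the lone one being assumed to vary like the RM, 239 were called without 012 (81 higher and 158 lower, with 3293 calls over all probes) and 419 without 013 (237 and 182, with 6825). The smallest p on the higher side were those of 003778, at 10.03 and 10.21 in the RM and 8.16 and 8.01 in the sham AAR, and of 005174, at 9.67 and 9.93 against 7.80 and 7.58. On the lower side they were those of 005664, at 4.12 and 4.09 in the RM against 6.40 and 6.28 in the sham AAR, and of 004371, at 8.14 and 8.10 against 10.02 and 10.27. These 4 differed by 2.04, 2.11, -2.24 and -2.02, and their limma adjusted p of 0.159 did not pass the threshold.

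**Figure D5:**
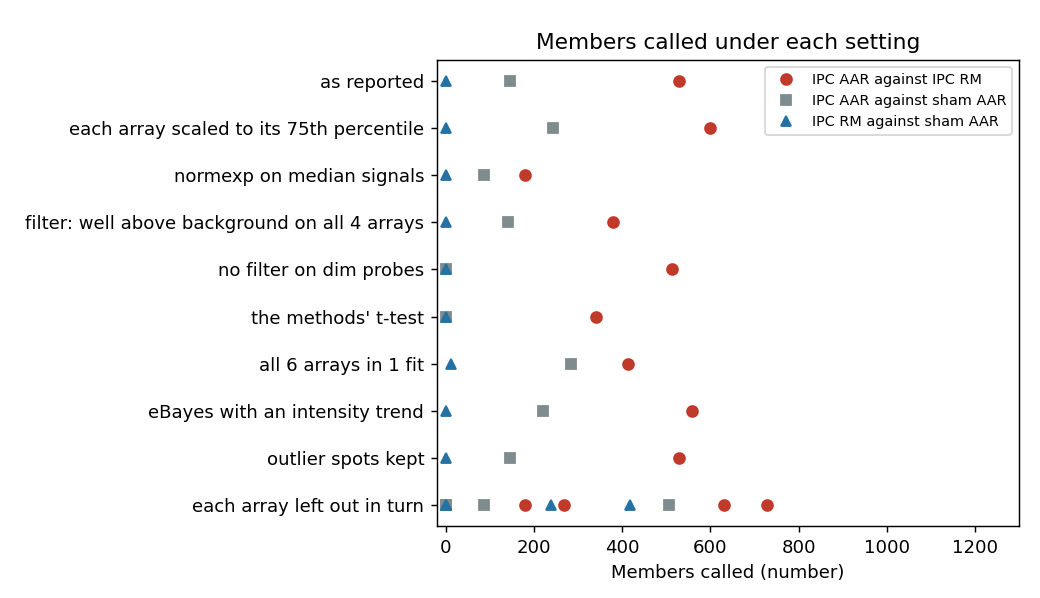
Number of members called in each of the 3 comparisons as reported and under the alternative settings other than the mouse as a block, with 4 points per comparison where each array was left out in turn. IPC AAR against IPC RM ranges from 179 to 728 and has calls in each setting. IPC AAR against sham AAR falls to 0 in some. IPC RM against sham AAR is at 0 as reported and has calls only in the joint fit and with a sham array left out.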

How the data were processed

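Per the labels, 6 heart biopsies were hybridized singly in 1 color. The authors extracted spots with Agilent Feature Extraction (version 11.0.1.1 in the headers). Used here were the deposited intensity values called processed signals, background-corrected within each array by that software and not normalized between arrays. A deposited series table has 6 value columns whose names match no sample record and was not used.

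Of 59994 non-control spots, outliers (17 to 29 per array) were removed, log2 values averaged per probe and quantile normalized over 6 arrays (R 4.3.3, limma 3.58.1). A probe with several spots was well above background when at least 0.5 of them were. Groups were compared with limma's lmFit and eBayes on 4 arrays and Benjamini-Hochberg adjustment over all probes tested; members with a missing value on an array compared (6 have one somewhere) were left out there. With 2 arrays against 2, an exact permutation test cannot go below 0.333, so none was used, and p-values measure the spread of these few arrays, whose number limits the precision. The procedure was tried on simulated data with independent noise for each probe and 200 probes shifted by 3 on the log2 scale. It recovered 87% to 94.5% of these, with 9 or 10 false calls per comparison. The simulated data had no array-wide effects and no detection limit, so they do not show how stable the counts are.

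Mouse numbers pair AAR with RM by label, and the Xist values leave it uncertain that a pair is from the same animal. The deviations of the mice from the group means had a correlation of -0.10 between AAR and RM across 2982 members, and probes are not replicates.

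The members, the rules for them and the lists were chosen with earlier results of these data known. Named were, per comparison, the 6 called members with the largest difference in each direction among those detected on all 4 arrays (where none was called, the 2 of smallest p), the 3 called members with the largest bound in each direction, the ends of the block and the 4 in each direction called in both comparisons. Alternatives were scaling to the 75th percentile, normexp (offset 50) on median signals, 2 other filters, the methods' t-test, a joint fit, an intensity trend, outliers kept, each array left out, the mouse as a block and another detection flag.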

Additional observations from a re-analysis of the deposited data

How the results depend on the processing

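For IPC AAR against IPC RM (529 members called), scaling to the 75th percentile, both other filters, the joint fit, the intensity trend and outliers kept gave 379 to 599 calls, and the replicate block (mouse as a pairing term) 492. Normexp gave 180 and the methods' t-test 341, and leaving out each array in turn gave 179 to 728. For IPC AAR against sham AAR (146), the counts were 244 with scaling, 88 with normexp, 0 without a filter, 0 in the t-test, 284 in the joint fit, 220 with a trend and 0 to 507 with each array left out. For IPC RM against sham AAR (0), the joint fit called 12, and leaving out each array gave 0 to 419; all other settings gave 0. An array left alone in its group was assumed to vary like the other group. Scaling moved the median difference of all probes from 0.20 to 0.33 in the first comparison and from 0.23 to 0.34 in the second, and the members' from 0.30 to 0.36 and from 0.34 to 0.38; higher calls then made up 59.8% and 61.9% of calls, in place of 54.3% and 53.4%. Without sham mouse 013 the second share was 31.0%, and without the RM array of mouse 004 the first was 39.7%. Without the AAR array of mouse 004, the difference of 001808 between AAR and RM turned from -0.27 to 0.14 (lowest -0.68 without that of mouse 008); no other named member changed sign. By the looser flag for positive and significant spots, 3319 and 3431 members were detected in the IPC AAR, 3643 and 3701 in the RM and 3126 and 3512 for sham. The slide as a block was not run, since each slide holds 1 treatment. The causes were not tested.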
